A study of Rattus norvegicus with 6 samples.

Results

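Aif1l and Cryl1 are a pair of genes chosen because their transcripts were higher in rat hearts after release from an aortic constriction than in hearts still under it. They are 2 of the 15037 genes with a symbol on the array, and each was represented by 1 row of the deposited table, matched by its platform gene symbol. They were selected on their measured values on the TAC-R and TAC arrays, so that contrast is described here without a test. RNA of whole hearts was measured on 6 single-channel Clariom S Rat arrays, 2 from TAC-R hearts, 2 from TAC hearts and 2 from normal hearts. TAC-R hearts had been released from TAC, a narrowing of the transverse aorta made by tying a thread around it over a needle that was then withdrawn, and TAC hearts had been subjected to it. Normal hearts served as controls; the surgical protocol mentions control rats operated on without ligation, and whether the normal hearts were theirs is not stated. All rats were male Sprague-Dawley animals, 10 weeks old in the surgical protocol. How long the hearts were under TAC or released is not stated either.

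Nothing states that the arrays of 1 group are from separate rats, so p-values reflect the spread between arrays alone, which could be technical. The extraction protocol names cultured fibroblasts, whereas the other fields name whole heart; the ventricular muscle genes Myl3 and Pln lay at the highest value of the table, 19.93 log2 units, on all 6 arrays. Whole-heart RNA mixes cell types, so fewer cells of a type and less RNA per cell cannot be told apart. Array medians of the tested rows lay between 5.31 and 5.39 log2 units. The 95th percentile of the negative control rows, used here as the upper edge of background, lay between 8.09 and 8.55 log2 units.

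Aif1l encodes a small EF-hand protein that binds and bundles actin filaments, and it is the paralogue of Aif1, known as Iba1 and used as a marker of macrophages. Cryl1 encodes lambda-crystallin, a soluble NAD-dependent enzyme named from its abundance in the rabbit lens. It oxidises L-gulonate in the glucuronate and xylulose pathway, which leads from UDP-glucose through glucuronate and xylulose to the pentose phosphate pathway, and its sequence places it with the 3-hydroxyacyl-CoA dehydrogenases. The genes lie on chromosomes 3 (Aif1l) and 15 (Cryl1) of the rat.

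The 250 bases before the RefSeq start site of each gene are shown because both transcripts were higher on the TAC-R than on the TAC arrays. The Aif1l stretch is chr3:35626989-35627238 on the plus strand and the Cryl1 stretch is chr15:35661564-35661813 on the minus strand of GRCr8, each written 5′ to 3′, with capitals marking the letters of the GC box, GGGCGG, and of the CCAAT box, CCAAT, on either strand.
Aif1l: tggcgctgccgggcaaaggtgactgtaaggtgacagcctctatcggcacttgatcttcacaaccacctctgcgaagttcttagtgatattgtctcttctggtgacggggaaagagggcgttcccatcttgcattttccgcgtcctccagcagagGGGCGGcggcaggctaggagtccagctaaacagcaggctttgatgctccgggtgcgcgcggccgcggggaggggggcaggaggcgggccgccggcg
Cryl1: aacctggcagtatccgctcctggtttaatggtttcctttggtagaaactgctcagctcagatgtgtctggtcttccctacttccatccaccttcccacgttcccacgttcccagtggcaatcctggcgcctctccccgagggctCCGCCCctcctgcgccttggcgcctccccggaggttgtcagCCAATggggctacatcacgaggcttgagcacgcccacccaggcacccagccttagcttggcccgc
Both stretches were rich in G and C, at 62.8% for Aif1l and 61.6% for Cryl1 against a median of 51.2% over 33469 rat promoters of the same length. Aif1l held 20 CpG dinucleotides and Cryl1 held 12, against a median of 5. Each had 1 GC box match, which starts 96 bases before the start site in Aif1l and, on the opposite strand, 106 bases before it in Cryl1; 30.5% of all promoters held one. The CCAAT letters occurred once in Cryl1, 65 bases before the start site, and in 34% of all promoters, and they were not in the Aif1l window. The core letters of the cyclic AMP response element, TGACG, occurred once in Aif1l, 149 bases before the start site, and in 18.2% of all promoters, and not in the Cryl1 window. Neither window held TATAAA (in 12.9% of all promoters), CACGTG (5.59%), TGAGTCA (4.05%), CATTCC (12.1%) or AGAACA (17.5%) on either strand. CACGTG reads the same on both strands, and the matches in these 2 windows did not overlap one another. These matches describe letters in 1 window and not bound sites.

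The Aif1l signal on the TAC-R arrays stood far above its level in both other groups. It read 12.13 and 11.95 log2 units on the 2 TAC-R arrays, 9.20 and 9.08 on the 2 TAC arrays, and 9.62 and 9.60 on the 2 normal arrays. The TAC-R arrays were the high ones, no 2 groups overlapped, and the normal arrays lay between the others, close to the TAC arrays. All 6 readings were above the background percentile of their own array, by 3.96 and 3.86 log2 units on the TAC-R arrays, 0.98 and 0.96 on the TAC arrays, and 1.17 and 1.05 on the normal arrays. Among the 23188 tested rows, Aif1l stood at the 93.2 and 92.5 percentile on the TAC-R arrays, at the 79.8 and 79.3 percentile on the TAC arrays, and at the 82.9 and 83.1 percentile on the normal arrays.

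Cryl1 was also highest on the TAC-R arrays, but its normal level lay near the TAC-R level and its TAC level was the one that stood apart. It read 11.27 and 11.20 log2 units on the TAC-R arrays, 7.95 and 8.30 on the TAC arrays, and 10.49 and 10.74 on the normal arrays. The TAC arrays were the low ones and the groups did not overlap. TAC replicate 1 lay 0.27 log2 units below the background percentile of its array and TAC replicate 2 lay 0.18 above its own, so only 1 of the 2 TAC arrays measured Cryl1 above background. Its TAC-R readings were 3.10 and 3.11 log2 units above that percentile and its normal readings 2.05 and 2.19 above it. Cryl1 stood at the 90.5 and 90.1 percentile of the tested rows on the TAC-R arrays, at the 71.1 and 73.8 percentile on the TAC arrays, and at the 87.4 and 88.9 percentile on the normal arrays.

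**Figure D1:**
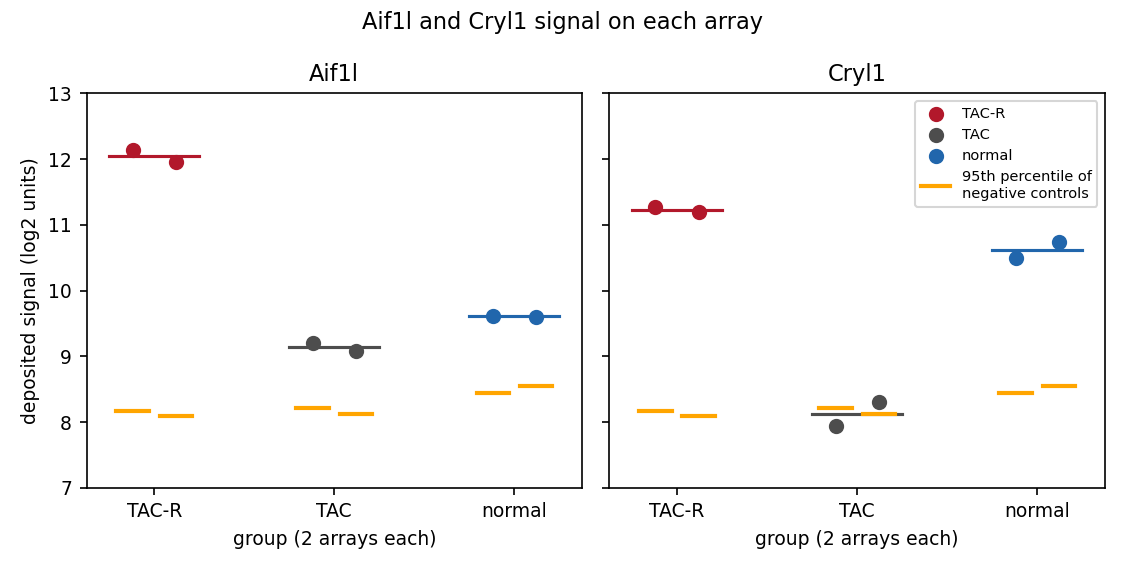
Deposited log2 signal of Aif1l (left) and Cryl1 (right) on each array, with TAC-R, TAC and normal arrays as points, the mean of the 2 arrays of a group as a line in its colour, and the background percentile of each array as an orange bar. Aif1l sits at 12.13 and 11.95 on the TAC-R arrays with the other 4 arrays between 9.08 and 9.62, whereas Cryl1 sits at 7.95 and 8.30 on the TAC arrays with the other 4 between 10.49 and 11.27.

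The arrays of a group agreed within a narrow range for both genes. Aif1l averaged 12.04 ± 0.13 log2 units on the TAC-R arrays, 9.14 ± 0.08 on the TAC arrays and 9.61 ± 0.02 on the normal arrays (SD, n = 2 each). Cryl1 averaged 11.23 ± 0.05 on the TAC-R arrays, 8.12 ± 0.25 on the TAC arrays and 10.61 ± 0.17 on the normal arrays (SD, n = 2 each). The residual SD within groups was 0.088 log2 units for Aif1l, a value below which 5.74% of tested rows lay, and 0.179 for Cryl1, with 29.2% of rows below it. The median over all rows was 0.243. The largest gap between 2 arrays of a group was 0.36 log2 units, for Cryl1 under TAC. Both genes had the same order of levels, TAC-R above normal above TAC, with no overlap between neighbouring groups. That order without overlap was met by 1.95% of all tested rows, a share from which nothing is read for the pair, since its TAC-R above TAC part chose them.

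The difference between TAC-R and TAC hearts, which chose the genes, was of similar size for both. Aif1l was 2.90 ± 0.21 log2 units higher on the TAC-R arrays (± SE of the fit), a 7.48-fold difference, and the smallest gap between any TAC-R array and any TAC array was 2.76. Cryl1 was 3.11 ± 0.23 log2 units higher, 8.63-fold, with a smallest gap of 2.89. With the Cryl1 reading of TAC replicate 1 raised to the background percentile of its array, the fold was 7.84. Cryl1 had the difference of rank 7 and Aif1l that of rank 9 among the rises of all 23188 rows. In this contrast 20.1% of rows had both TAC-R arrays above both TAC arrays, and 0.431% of rows were called at an adjusted p under 0.05 by limma with Benjamini-Hochberg adjustment, 0.224% as higher and 0.207% as lower. Nothing is read from these shares for the 2 genes, since the contrast chose them.

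The comparison of TAC-R with normal hearts asked whether the level after release differed from that of hearts not under constriction, and here the genes parted. Aif1l rose by 2.43 ± 0.21 log2 units, 5.41-fold, with a 95% interval of 1.96 to 2.91 (limma, adjusted p = 0.0075 over all tested rows). Both TAC-R arrays were above both normal arrays by at least 2.33 log2 units. Cryl1 differed by 0.62 ± 0.23 log2 units, 1.54-fold, with an interval of 0.10 to 1.14, and did not pass (adjusted p = 0.4 by limma, unadjusted p = 0.0243). Its TAC-R arrays were both above its normal arrays, the smallest gap being 0.46 log2 units against a gap of 0.24 between the 2 normal arrays. In this contrast limma called 0.0906% of rows, 0.0604% as higher and 0.0302% as lower, and in 20.6% of rows both TAC-R arrays lay above both normal arrays. The TAC-R arrays are among those that chose the genes, so the Aif1l call is not independent of the choice. The call passed without either TAC array (adjusted p = 0.0272). It did not pass without TAC-R replicate 1, TAC-R replicate 2, normal replicate 1 or normal replicate 2 (adjusted p = 0.0981, 0.0504, 0.0958 and 0.194), while the difference stayed between 2.34 and 2.53 log2 units.

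The comparison of TAC with normal hearts asked how the arrays labelled TAC differed from the normal ones, and the genes parted the other way. Cryl1 fell by 2.49 ± 0.23 log2 units on the TAC arrays, 5.62-fold, with a 95% interval of the difference of -3.01 to -1.97 (limma, adjusted p = 0.00466 over all tested rows). With the reading of TAC replicate 1 at the background percentile the fall was 5.11-fold. Every TAC array was below every normal array by at least 2.19 log2 units, and 6 rows of the table, Cryl1 among them, had a difference as low or lower. Aif1l differed by -0.47 ± 0.21 log2 units, with an interval of -0.94 to 0.01, and did not pass (adjusted p = 0.487 by limma, unadjusted p = 0.0524). Its TAC arrays were both below its normal arrays, by at least 0.40 log2 units, and 9.43% of all rows had a difference as low. In this contrast limma called 0.254% of rows, 0.19% as higher and 0.0647% as lower, and in 21.3% of rows both TAC arrays lay below both normal arrays. The TAC arrays are among those that chose the genes, so the Cryl1 call is not independent of the choice either. It passed without either TAC-R array (adjusted p = 0.0203). It did not pass without TAC replicate 1, TAC replicate 2, normal replicate 1 or normal replicate 2 (adjusted p = 0.067, 0.0503, 0.0508 and 0.0779), while the difference stayed between -2.67 and -2.31 log2 units.

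**Figure D2:**
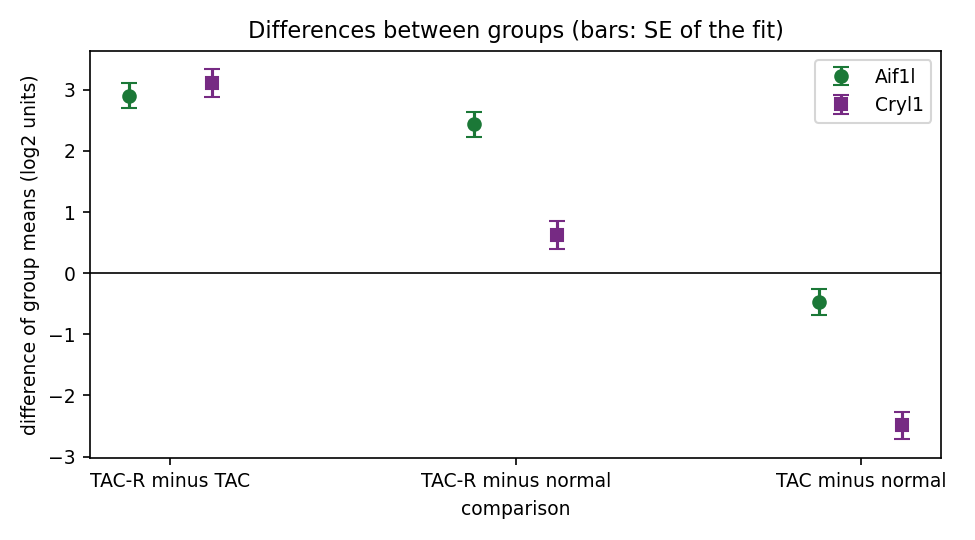
Differences of group means in log2 units for Aif1l (circles) and Cryl1 (squares) in the 3 comparisons, with bars of ± 1 SE of the fit. The pair lies close together for TAC-R minus TAC (2.90 and 3.11) and apart for TAC-R minus normal (2.43 and 0.62) and TAC minus normal (-0.47 and -2.49).

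The normal level divided the difference between TAC-R and TAC hearts differently in the 2 genes. The difference between TAC-R and normal hearts made up 83.9% of the TAC-R to TAC difference of Aif1l on the log2 scale, and 19.9% of that of Cryl1. The part between the normal and TAC levels made up the other 16.1% for Aif1l and 80.1% for Cryl1. The intervals given above for the 2 genes did not overlap in either comparison with normal hearts, and the difference between the genes was not tested. The 3 comparisons share arrays, so their values are shown side by side and are not independent of one another.

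**Figure D3:**
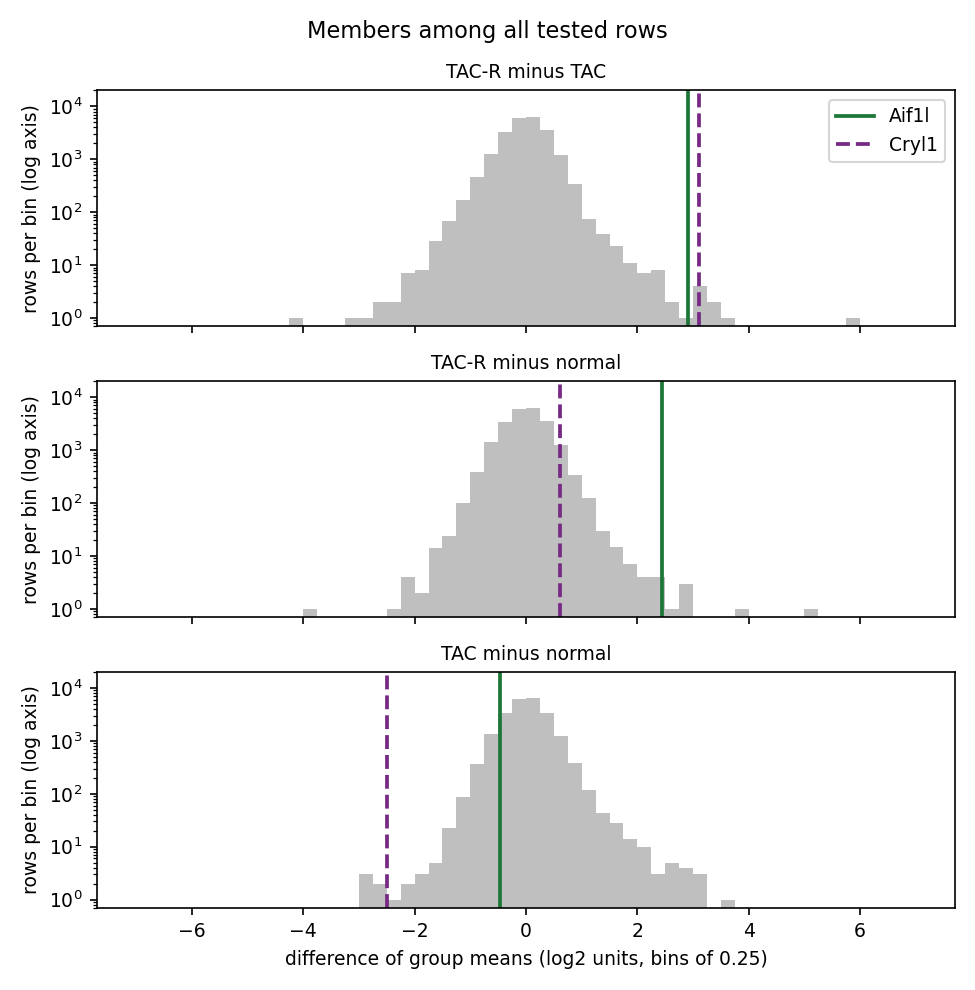
Number of tested rows per bin of 0.25 log2 units, on a log axis, by difference of group means in each of the 3 comparisons, with Aif1l as a solid line and Cryl1 as a dashed line. For TAC-R minus normal Aif1l lies in the right tail at 2.43 and Cryl1 at 0.62, and for TAC minus normal Cryl1 lies in the left tail at -2.49 and Aif1l at -0.47.

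The list of actin bundling and cross-linking genes had 24 measured members of 27. Of these, 12 were above the background percentile on all 6 arrays and 10 below it on all. Of the 23 other than Aif1l, limma called 0 between TAC-R and TAC hearts, with 9 at an unadjusted p under 0.05 beside 11% of all tested rows. The median difference of those 23 was -0.18 log2 units, with a range of -1.11 to 0.71, beside a median of 0.00 over all rows. With Aif1l counted, 8 of the 24 had a higher mean on the TAC-R than on the TAC arrays and 16 a lower one. Between TAC-R and normal hearts limma called 0 of the 23, which had a median of -0.10, with 2 at an unadjusted p under 0.05 beside 10.7% of all rows. Between TAC and normal hearts limma called 0 of the 23, with 6 at an unadjusted p under 0.05 beside 10.3% of all rows and a median of 0.28. Aif1, the paralogue, read 6.16 and 6.24 log2 units on the TAC-R arrays, 6.51 and 6.25 on the TAC arrays, and 5.80 and 5.59 on the normal arrays. All 6 Aif1 readings were in the background range, so the sizes of its differences are not measured.

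The glucuronate and xylulose pathway around Cryl1 had 15 measured members of 15, of which 6 were above background on all arrays and 8 below it on all. For those 8 the sizes of the differences are not measured, and the medians that follow include them. Of the 14 other than Cryl1, limma called 0 in each comparison. They had median differences of 0.06 log2 units for TAC-R minus TAC, 0.10 for TAC-R minus normal and 0.04 for TAC minus normal, with 1, 2 and 1 of them at an unadjusted p under 0.05, beside the shares of all rows given above. Akr1a1, the aldehyde reductase that supplies L-gulonate, differed by 0.07 log2 units between TAC-R and TAC hearts and by 0.32 between TAC and normal hearts. Dcxr, the L-xylulose reductase, differed by -0.01 and 0.27 in the same comparisons, and Sord, which oxidises xylitol and sorbitol, by 0.30 and -0.01. These 3 neighbours of Cryl1 in the pathway were above background on all 6 arrays and none was called by limma in any comparison (adjusted p between 0.558 and 0.996). Ugdh, which makes UDP-glucuronate, and Xylb, the xylulokinase, were below the background percentile on all 6 arrays. Of the pentose phosphate list, 8 of 10 genes were measured, 6 of them below the background percentile on all arrays and 1 above it on all, and limma called 0 in each comparison, with 0 at an unadjusted p under 0.05. All 8 were higher on the TAC arrays than in normal hearts by their means, with a median of 0.25 log2 units. With 6 of them in the background range, for most the size is not measured.

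Hadh, the mitochondrial short-chain 3-hydroxyacyl-CoA dehydrogenase, averaged 17.67 log2 units on the TAC-R arrays, 18.13 on the TAC arrays and 17.57 on the normal arrays. Hadha, of the mitochondrial trifunctional protein, and Ehhadh, of the peroxisome, differed by -0.21 and -0.21 log2 units between TAC-R and TAC hearts. Limma called 0 of these 3 in each comparison, with 1 of them at an unadjusted p under 0.05, in TAC minus normal. The shares of all rows are those given above. Of the 12 measured crystallin-named genes other than Cryl1, 10 were below the background percentile on all 6 arrays. Crym was the 1 of the 12 called in TAC-R minus TAC (limma, adjusted p = 0.0151), beside 0.431% of all rows called. Crym encodes mu-crystallin, which binds thyroid hormone. It read 8.95 and 8.59 log2 units on the TAC-R arrays, 6.82 and 6.24 on the TAC arrays, and 6.87 and 7.10 on the normal arrays. Only its TAC-R readings were above the background percentile, so it was at least 1.51-fold higher there than under TAC. That bound sets the TAC-R mean against the background percentile of the TAC arrays. The Crym call did not pass without any single one of the TAC-R or TAC arrays.

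The genes with the profile nearest to that of each member were found by the Euclidean distance between the 6 log2 values, each gene centred on its own mean, among 4472 other genes with a mean above the background percentile. Distances are in log2 units and describe these 6 arrays, which all genes share. Nearest to Aif1l were Maoa at 0.95, Ncf1 at 1.21, Ap1ar at 1.35, Hyal1 at 1.37 and Mt2A at 1.42, with Pearson r between 0.938 and 0.985 over the 6 arrays. Maoa, the monoamine oxidase A of the outer mitochondrial membrane, averaged 17.62 log2 units on the TAC-R arrays, 15.33 on the TAC arrays and 15.99 on the normal arrays. Ncf1 encodes a cytosolic subunit of the phagocyte NADPH oxidase, Hyal1 a lysosomal hyaluronidase and Mt2A a metallothionein. Each of the 5 had its larger step between TAC-R and normal hearts, 1.13 to 1.63 log2 units. The smaller step, -0.34 to -1.12, lay between TAC and normal hearts. A likeness to Aif1l in these steps follows from choosing the genes by distance. The 2 steps of Ncf1 were close in size, at 1.24 and -1.12. Mt2A was below the background percentile on both TAC and both normal arrays and passed the filter on means through its TAC-R arrays, so the size of its step of -0.34 is not measured.

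Nearest to Cryl1 were Nppb at 0.76, Myh7 at 1.08, Iqcm at 1.14, Tmem179 at 1.23 and Ncf1 at 1.41, with Pearson r between 0.928 and 0.978. Nppb, the B-type natriuretic peptide made by stretched heart muscle, read 16.91 and 17.23 log2 units on the TAC-R arrays, 13.57 and 13.88 on the TAC arrays, and 16.05 and 15.72 on the normal arrays. Its differences of 3.35 for TAC-R minus TAC and -2.16 for TAC minus normal stood beside 3.11 and -2.49 for Cryl1. Myh7, the slow myosin heavy chain, was at the ceiling of the table on 1 TAC-R and 1 normal array. Its distance from Cryl1 is thus only as measured below that ceiling. Myh7 averaged 19.92 log2 units on the TAC-R arrays, 17.82 on the TAC arrays and 19.92 on the normal arrays. So Nppb, although made by stretched heart muscle, was lower on the arrays labelled TAC than on the normal arrays, as was Myh7. The reason was not tested. Ncf1 was on both lists. Cryl1 itself ranked 57 among the genes nearest to Aif1l, and Aif1l ranked 31 among those nearest to Cryl1, at a distance of 2.26 and r = 0.754.

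**Figure D4:**
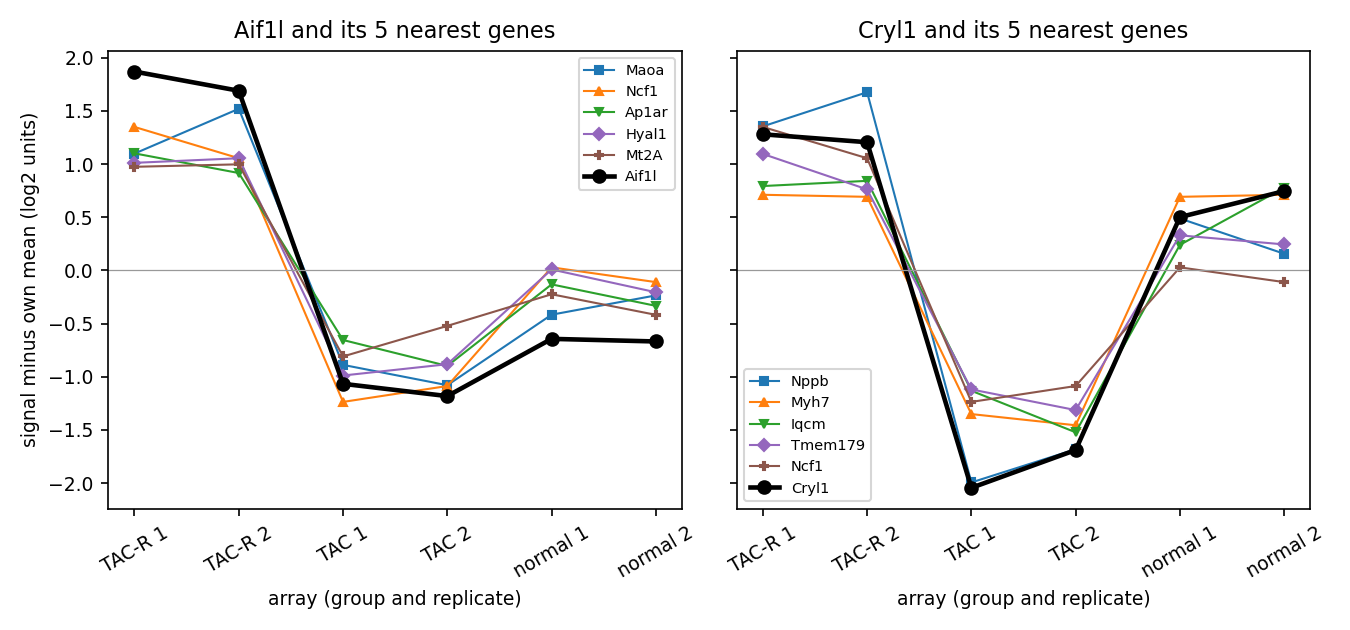
Log2 signal minus each gene's own mean over the 6 arrays for Aif1l (left, black) and Cryl1 (right, black) with the 5 nearest genes of each in colour, by array. Aif1l and its neighbours are high on the TAC-R arrays and low on the TAC arrays, with the normal arrays of Aif1l below its mean; Cryl1 has both normal arrays above its mean and both TAC arrays far below it.

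Genes near each member on its chromosome that have a named row on the array are given next, and limma called 0 of them. Of all tested rows, 0.431%, 0.0906% and 0.254% were called in TAC-R minus TAC, TAC-R minus normal and TAC minus normal. The shares at an unadjusted p under 0.05 were 11%, 10.7% and 10.3%. At such shares nothing is read from 0 calls among so few genes. The 3 nearest genes with such a row on each side, in the RefSeq gene order of GRCr8, were taken after the members' values were known. Genes without a row were passed over, so those listed need not be directly adjacent. For Aif1l they were Qrfp, Fibcd1 and the laminin gene Lamc3 on one side and the nucleoporin gene Nup214, Plpp7 and Pomt1 on the other. Their differences between TAC-R and TAC hearts ran from -0.40 to 0.07 log2 units, and limma called 0 of 6 in each comparison, with 0 at an unadjusted p under 0.05. None of these 6 was above background on all 6 arrays. For Cryl1 the genes were the connexin genes Gja3, Gjb2 and Gjb6 on one side and Ift88, Eef1akmt1 and Lats2 on the other. Their differences ran from -0.30 to 0.51 between TAC-R and TAC hearts and from -0.42 to 0.41 between TAC and normal hearts, and limma called 0 of 6 in each comparison, with 0 at an unadjusted p under 0.05. Gja3 read 11.32 and 11.60 log2 units on the TAC-R arrays, 11.63 and 11.56 on the TAC arrays, and 11.63 and 11.40 on the normal arrays. Gja3 and Lats2, a kinase of the Hippo pathway, were the 2 neighbours above background on all arrays.

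**Figure D5:**
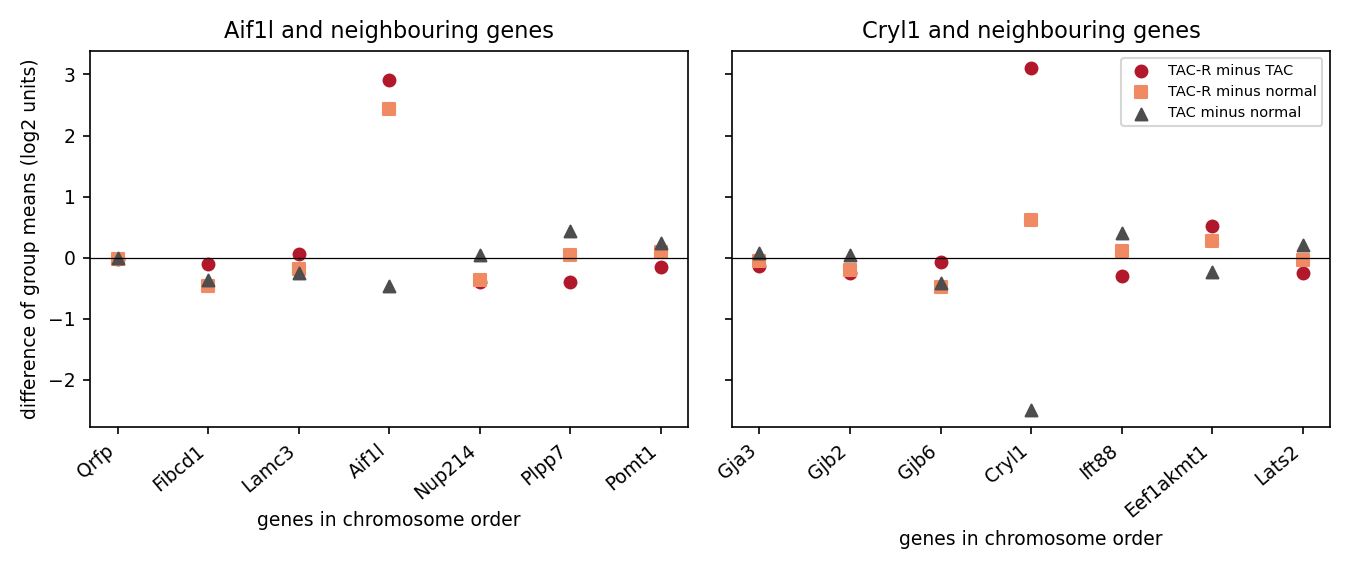
Differences of group means in log2 units for Aif1l (left) and Cryl1 (right) and the 3 nearest genes with a named row on the array on each side. Genes are in chromosome order, with circles for TAC-R minus TAC, squares for TAC-R minus normal and triangles for TAC minus normal. The members reach 2.90 and 3.11 for TAC-R minus TAC while the 12 neighbours lie between -0.40 and 0.51.

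Markers of other heart cell types also differed between the groups. The shares of all rows called were 0.224% higher and 0.207% lower for TAC-R minus TAC. They were 0.0604% higher and 0.0302% lower for TAC-R minus normal, and 0.19% higher and 0.0647% lower for TAC minus normal. Of 6 lymphatic endothelial genes 2, Lyve1 and Ccl21, were called higher on the TAC-R than on the TAC arrays by limma, and Ccl21 was called lower in TAC than in normal hearts. Lyve1, a hyaluronan receptor of lymphatic vessels, read 9.15 and 8.83 log2 units on the TAC-R arrays, 6.70 and 7.09 on the TAC arrays, and 8.76 and 8.30 on the normal arrays. Its TAC readings were thus low and its normal readings near the TAC-R ones, as for Cryl1, with both TAC arrays and normal replicate 2 below the background percentile. Ccl21, a lymphatic chemokine, was below that percentile on all 6 arrays, as were 3 others of the list, so the size of its differences is not measured. Prox1, the 1 gene of the list above that percentile on all 6 arrays, went the other way. It differed by -0.30 log2 units for TAC-R minus TAC and by 0.52 for TAC minus normal, and limma called neither. The log2 of the summed linear signal of the 6 genes was 11.05 and 10.80 on the TAC-R arrays, 10.74 and 10.69 on the TAC arrays, and 10.89 and 10.46 on the normal arrays.

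Of 8 atrial muscle genes 1, Myl7, was called higher on the TAC-R than on the TAC arrays, and 0 were called lower. The median difference was 0.74 log2 units. Against normal hearts Myl7 was again the 1 called, at 5.00 log2 units (limma, adjusted p = 0.0105). All 8 had a higher mean in TAC-R than in normal hearts, with a median of 1.26. Myl7, the atrial regulatory light chain, read 14.30 and 12.54 on the TAC-R arrays, 7.48 and 7.51 on the TAC arrays, and 8.40 and 8.43 on the normal arrays. Only its TAC-R readings were above the background percentile, so the full size of its differences is not measured. The log2 of the summed linear signal of the 8 genes was 15.32 and 13.96 on the TAC-R arrays, 13.26 and 13.15 on the TAC arrays, and 12.74 and 12.63 on the normal arrays. Of the list, 2 genes, Sln and Bmp10, were in the background range on all 6 arrays. The 2 TAC-R arrays differed by 1.77 log2 units for Myl7, by 0.18 for Aif1l and by 0.07 for Cryl1.

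Of 8 fibroblast genes 2 were called lower on the TAC-R than on the TAC arrays, with a median of -1.06. All 8 had a lower mean there and an unadjusted p under 0.05 by limma. All 8 also had a lower mean in TAC-R than in normal hearts and a higher mean in TAC than in normal hearts. Limma called 0 of them in either comparison with normal hearts, with 3 and 6 at an unadjusted p under 0.05. The log2 of the summed signal of the fibroblast genes was 16.86 and 16.47 on the TAC-R arrays, 17.45 and 17.54 on the TAC arrays, and 17.35 and 17.01 on the normal arrays. Of 9 measured endothelial genes limma called 0 in each comparison, with 4, 3 and 0 at an unadjusted p under 0.05 for TAC-R minus TAC, TAC-R minus normal and TAC minus normal, and all 9 had a lower mean in TAC-R than in normal hearts (median -0.35). Of 7 measured red cell genes 3 were called lower in TAC-R minus TAC, 5 higher in TAC minus normal and 1, Alas2, higher in TAC-R minus normal. Of 9 smooth muscle and pericyte genes limma called 0 in TAC-R minus TAC, with 5 at an unadjusted p under 0.05. All 9 had a lower mean in TAC-R than in TAC hearts (median -0.62). Of 12 macrophage genes limma called 0 in each comparison. For TAC-R minus TAC, TAC-R minus normal and TAC minus normal, 3, 3 and 6 had an unadjusted p under 0.05, beside 11%, 10.7% and 10.3% of all rows. All 12 had a higher mean in TAC than in normal hearts (median 0.49). Of the 12, 9 were below the background percentile on all 6 arrays and 2 above it on all, so for most the size is not measured. Over all cell type lists, 8 genes were called in TAC-R minus TAC. With TAC-R replicate 1 left out the count was 1, with TAC-R replicate 2 left out 4, with TAC replicate 1 left out 1, and with TAC replicate 2 left out 0, where 25 had an unadjusted p under 0.05. In TAC minus normal 7 were called, among them Cnn1 of the smooth muscle and pericyte list, which was below the background percentile on all 6 arrays. There the count was 4 with TAC replicate 1 left out, 1 with normal replicate 1 left out, and 0 with TAC replicate 2 left out, where again 25 had an unadjusted p under 0.05. The part of these cell types in the levels of Aif1l and Cryl1 was not tested.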

How the data were processed

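Whole-heart RNA was hybridised to 6 Clariom S Rat arrays. Per the labels, the authors made the deposited log2 values by robust multi-array averaging in Expression Console with a core-exon analysis; versions and the background correction are not stated. The values were used without further scaling. Averaging of this kind makes array distributions alike, so a common shift of every transcript would be hidden. Of 24834 rows, 1646 control rows were left out and 23188 tested, 15049 of them with 1 gene symbol. Limma 3.58.1 in R 4.3.3 was fitted with a mean for each group over the 6 arrays (3 residual degrees of freedom, no covariate) and tested on simulated data. Rows were called at a Benjamini-Hochberg adjusted p under 0.05. An exact two-sided permutation test of 2 arrays against 2 cannot go below p = 0.333. The number of arrays limits the precision. The genes and lists were chosen with earlier results of these data known. Genes named beside the pair were the called members of pathway lists, set relatives and pathway neighbours, the 5 nearest profiles and markers that stood beside a result. Alternatives changed the moderation, row filters, controls, scaling, arrays in the fit and the replicate number. Promoter sequences came from RefSeq, GRCr8, which matched both genes by symbol.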

Additional observations from a re-analysis of the deposited data

How the results depend on the processing

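When 1 array was left out, the differences between TAC-R and TAC hearts ran from 2.81 to 2.99 log2 units for Aif1l and from 2.93 to 3.29 for Cryl1. With 2 arrays per group, leaving 1 out always moves the group mean by less than the SD of that group. These ranges are therefore given as a description only. The other alternatives gave 2.90 to 2.93 log2 units for Aif1l and 2.97 to 3.13 for Cryl1. Leaving out 1 array gave 2.34 to 2.53 for Aif1l and 0.50 to 0.74 for Cryl1 (TAC-R minus normal), and -0.53 to -0.41 for Aif1l and -2.67 to -2.31 for Cryl1 (TAC minus normal); the calls lost then are named in the results. In the fits with all arrays of a comparison, the Aif1l call against normal hearts and the Cryl1 call under TAC passed in 8 of 8 tested alternatives. With values raised to the background percentile only the differences were recomputed, and Cryl1 gave 2.97 for TAC-R minus TAC and -2.35 for TAC minus normal. Neither gene has a further row, so that alternative gave no value.

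Counts of called rows changed more. They were 100 for TAC-R minus TAC, 21 for TAC-R minus normal and 59 for TAC minus normal. In the same order they were 344, 156 and 170 with an intensity trend, 44, 10 and 39 with the control rows included, 37, 12 and 35 in fits limited to the 2 groups compared, and 47, 11 and 36 with the replicate number as a block. For TAC-R minus TAC the count was 187 with rows below the median mean left out (79 higher and 108 lower, against 52 and 48), and for TAC-R minus normal it was 68 with that filter, 54 with array medians subtracted and 37 without rows at the ceiling. With 1 array left out they ran from 4 to 37, 0 to 12 and 0 to 35; limma called 0 without normal replicate 2 for TAC-R minus normal (1630 at an unadjusted p under 0.05) and 0 without TAC replicate 2 for TAC minus normal (2025). Pathway genes other than the pair numbered 1, 0 and 0 calls, 3, 1 and 1 with an intensity trend, and 1 for TAC-R minus normal with the filter, with medians subtracted or without rows at the ceiling. Leaving out 1 array gave 0 to 1, 0 and 0 of them. Cell type genes called numbered 8, 2 and 7, and 17, 7 and 12 with an intensity trend. Samples sharing a replicate number did not deviate together (r of -0.0127, -0.00932 and 0.0117), and the replicate block changed no call of Aif1l or Cryl1. The cause of these changes was not tested.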
